A study of Mus musculus with 6 samples.

Results

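Krt15, the keratin of hair follicle stem cells and basal keratinocytes, was examined together with Lgr5, Lgr6, Lhx2, Sox9, Nfatc1, Cd34 and Lrig1. The RNA came from ear skin of control mice and of mice with an epidermal Ufl1 knockout. These 8 genes mark the stem cell compartments of the follicle and were picked by gene name from a table of 54532 genes. The 8 genes and the ratio to Krt5 and Krt14 used below were chosen with earlier results of these data known. All 8 were counted well enough to be tested, among 17318 tested genes. Ear skin was taken from mice aged 3 months, and its RNA was sequenced in 6 libraries. The 3 control libraries came from mice of genotype Ufl1f/+ or Ufl1f/f, which carried no Cre, and the labels do not say which control had which genotype. The 3 Ufl1 cKO libraries came from Ufl1f/f KRT14Cre/+ mice. The keratin 14 promoter drives Cre in basal keratinocytes and in the epithelium derived from them, which includes the follicle and its stem cells. The epithelial sources of these 8 genes thus lay within the lineage that the Cre targets. These libraries of whole skin do not show how completely Ufl1 was deleted there. Ufl1 encodes an E3 ligase of UFM1, a small protein that is joined to others in the manner of ubiquitin. Effects of the Cre itself cannot be told apart from those of Ufl1 loss, since no control carried it. The labels do not state that each library came from a separate mouse, and the spread behind every p-value is that among libraries, which may be technical.

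The hair follicle is renewed by stem cells that sit in named zones along its length. The bulge holds slowly cycling cells marked in mouse by Krt15, Cd34, Lhx2, Sox9 and Nfatc1, and its lower end and the hair germ hold Lgr5 cells that start a new growth phase. The isthmus above the bulge holds Lgr6 cells, and the junctional zone next to the sebaceous gland holds Lrig1 cells. Several of these genes are also transcribed outside the follicle. Sox9 is the master regulator of cartilage, which forms the core of the ear, and Cd34 is carried by dermal fibroblasts, vessel endothelium and blood progenitors. In RNA from whole skin, fewer cells of a type and less RNA per cell cannot be told apart.

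Krt15 belongs to a family of type I keratins that sit side by side on chromosome 11, so the first question was whether its reads can be told from those of its relatives. Its coding sequence of 1371 bases was 73.0% identical to that of Krt14 and 73.7% identical to that of Krt17. Of the 1651 windows of 50 bases in the Krt15 transcript, 11 (0.666%) occurred in a transcript of another gene, namely Krt17 or Krt25. The longest exact run shared with these relatives was 59 bases, with Krt25, and the longest shared with Krt14 was 28 bases. The stretch of the first exon around the run shared with Krt25 is printed 5′ to 3′ from the GENCODE transcripts (GRCm38), because it holds the longest of these runs. The run of 50 bases shared with Krt17 lies at coding bases 362 to 411, outside the printed bases 271 to 359. Capitals mark the run shared with Krt25 in the Krt15 line, and bases identical to Krt15 in the other lines. The positions are chr11:100135500-100135588 for Krt15, chr11:99322602-99322690 for Krt25 and chr11:100207028-100207116 for Krt14, all on the minus strand and all in the first, coding exon.
Krt15: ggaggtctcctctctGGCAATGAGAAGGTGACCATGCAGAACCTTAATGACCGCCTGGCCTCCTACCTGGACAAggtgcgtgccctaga
Krt25: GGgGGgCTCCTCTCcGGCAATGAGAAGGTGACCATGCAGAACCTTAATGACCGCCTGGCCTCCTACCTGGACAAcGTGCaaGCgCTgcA
Krt14: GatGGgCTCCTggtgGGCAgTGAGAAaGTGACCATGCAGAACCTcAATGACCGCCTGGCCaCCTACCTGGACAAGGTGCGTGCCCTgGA
In this window 77 of 89 bases of Krt14 were identical to Krt15, and the mismatches split the match into runs shorter than 50 bases. Lgr6, Lhx2, Sox9 and Nfatc1 shared 0 windows of 50 bases with other genes. Lgr5 shared 1.31% of its windows, Cd34 4.07% (all with Gm16897, a gene on the opposite strand) and Lrig1 1.80% (all with Slc25a26, a gene on the opposite strand).

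The RNA of tissue markers differed among the libraries, also inside the control group. Total counts ran from 17256339 to 20776539. Krt5 and Krt14, the keratin pair of all basal keratinocytes, summed to between 2102 and 8184 CPM (counts scaled to a common library size) in the controls and to between 4249 and 5674 CPM in the cKO libraries. Control 2 had the most basal keratin and the least fibroblast RNA, and control 1 the reverse. The 11 fibroblast genes summed to 10119 CPM in control 2, 26430 CPM in control 1 and between 21091 and 22493 CPM in the cKO libraries. Mitochondrial transcripts took 2.28% to 4.59% of the counts. The keratins Krt5, Krt14, Krt1 and Krt10, the dermal collagen gene Col1a1 and the cartilage genes Acan and Col2a1 were present in every library, as ear skin with its cartilage would have. Ufl1 itself was at 50.3 ± 6.58 CPM in the controls and 36.4 ± 2.05 CPM in the cKO (SD, n = 3 each), lower in each cKO library than in each control (edgeR unadjusted p = 0.00985, adjusted p = 0.778).

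The 8 genes covered a wide range of abundance per length. In FPKM, which divides counts by gene length and library size, Krt15 lay between 119 and 765 over the 6 libraries, above every value of the other 7 genes. Sox9 (25.8 to 41.0 FPKM) and Cd34 (18.5 to 43.6 FPKM) came next and overlapped each other. Lgr6 (12.9 to 17.8 FPKM), Lrig1 (12.2 to 16.4 FPKM) and Nfatc1 (9.56 to 12.7 FPKM) formed a middle group in which neighbours overlapped. Lhx2 (1.32 to 4.35 FPKM) and Lgr5 (0.697 to 1.52 FPKM) were lowest, and their ranges also overlapped. Krt15 stood above 99.2% of all tested genes by mean FPKM, and Lhx2 above 34.3%.

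**Figure D1:**
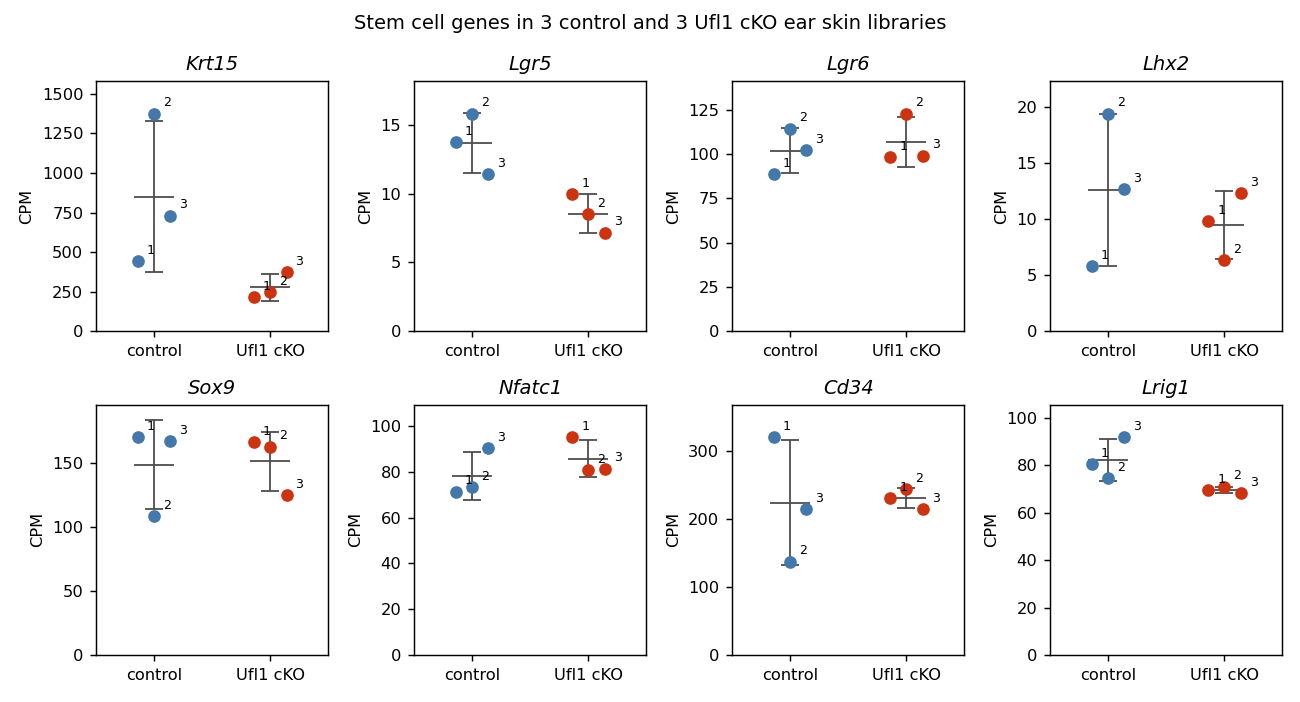
Level of each of the 8 genes in CPM (vertical axes, from 0) in the control and Ufl1 cKO libraries; points are libraries with their replicate number, and bars are the mean ± SD (n = 3). The cKO libraries lay below all controls for Krt15, Lgr5 and Lrig1 and overlapped the controls for the other 5 genes.

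Krt15 showed the largest difference between the groups among the 8 genes. Krt15 (ENSMUSG00000054146, chromosome 11, 100131758 to 100135928, minus strand, mm10) reached 445, 1375 and 730 CPM in controls 1 to 3. The 3 cKO libraries gave 213, 247 and 374 CPM in the same order. All of them were below the lowest control, and the controls themselves spread widely, with control 2 far above the others. The means were 850 ± 477 CPM in the controls and 278 ± 84.7 CPM in the cKO (SD, n = 3 each). In edgeR this was -1.61 on the log2 scale (SE 0.41, 95% interval -2.56 to -0.66). Krt15 did not pass the quasi-likelihood test of edgeR over all 17318 genes (adjusted p = 0.650, unadjusted p = 0.00441). The two-sided exact permutation test over libraries gave p = 0.1, the smallest that 3 against 3 allow.

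The call for Krt15 depended on the test. DESeq2 gave the same log2 fold change of -1.61 with an adjusted p of 0.0103, and it called 0.139% of its genes lower and 0.387% higher. The authors' deposited table lists Krt15 at -1.60 (log2) with an adjusted p of 0.00567, where 0.0737% of the genes were called lower and 0.204% higher. limma-voom gave an adjusted p of 0.716, and with quality weights it gave 0.0721. Leaving out control 2 moved the edgeR log2 fold change to -1.08 (adjusted p = 0.538) and leaving out control 1 moved it to -1.93 (adjusted p = 0.340). In DESeq2 the adjusted p of Krt15 was 0.0395 without control 2, 0.0732 without control 3, 0.323 without cKO 1 and 0.0927 without cKO 2.

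Relative to the basal keratins of the same library, Krt15 was separated between the groups with little spread inside them. Krt15 counts amounted to 21.2%, 16.8% and 21.6% of the summed Krt5 and Krt14 counts in controls 1 to 3. In cKO 1 to 3 they amounted to 4.15%, 5.81% and 6.59%. The controls thus lay within a 1.29-fold range on this scale, while their Krt5 and Krt14 levels differed by 3.89-fold, and no cKO library came near them. On the log2 scale the ratio was lower by a mean of 1.87 in the cKO (pooled SD 0.28, n = 3 each), so the controls were 3.64-fold higher. The median difference of all genes on this ratio scale was -0.36. The two-sided exact permutation test gave p = 0.1, again the smallest possible value. The difference was between -2.01 and -1.67 when any 1 library was left out, and it was -1.81 without control 1 and -1.98 without control 2. The ratio needs no scaling between libraries. The log2 difference was -1.59 against Krt5 alone, -2.05 against Krt14 alone and -1.38 against the other 13 genes of basal keratinocytes. Every cKO library was below every control each time. Krt14 was higher relative to Krt5 in every cKO library than in every control, which adds to the difference. The reference pair thus did not keep the same proportion in both groups. Against the 13 genes the controls were at 20.5%, 34.8% and 27.8%, a 1.70-fold range, and the cKO at 8.03%, 10.1% and 13.7%.

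**Figure D2:**
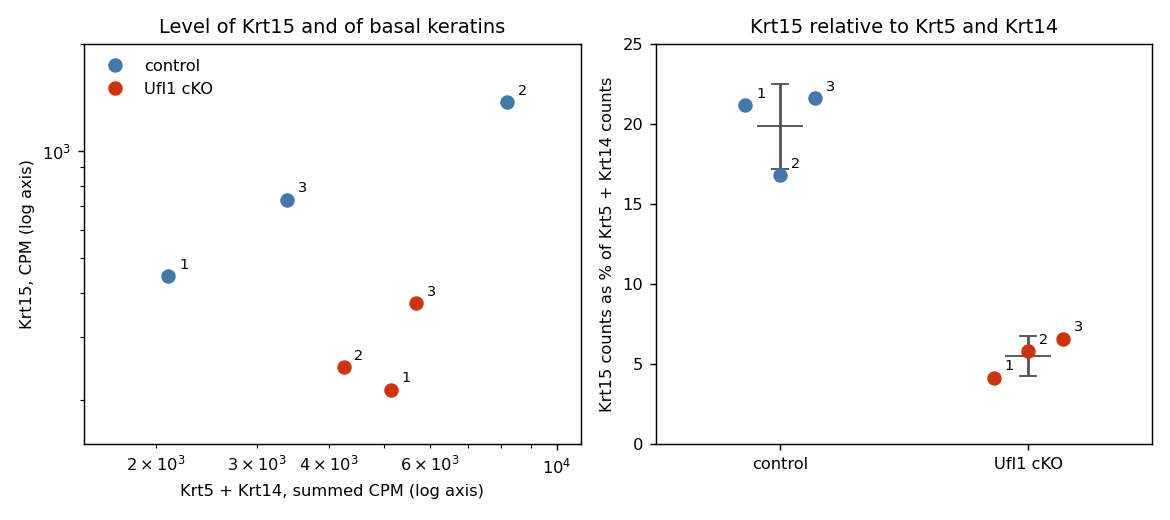
Left, Krt15 against the sum of Krt5 and Krt14 in each library (CPM, both axes logarithmic); right, Krt15 counts as a percentage of Krt5 plus Krt14 counts, with mean ± SD (n = 3). The controls lie between 16.8% and 21.6% and the cKO libraries between 4.15% and 6.59%.

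Neither the level of Krt5 nor that of Krt14 separated the groups, although the ratio of Krt14 to Krt5 did. Krt14 was at 2542 ± 1787 CPM in the controls and 3176 ± 442 CPM in the cKO, and Krt5 at 2013 ± 1420 and 1844 ± 313 CPM (SD, n = 3 each). edgeR put Krt14 at 0.32 (SE 0.46) and Krt5 at -0.13 (SE 0.46) on the log2 scale, both with an adjusted p of 0.997. The cKO libraries lay below all controls in their ratio to Krt5 and Krt14 for 2 of the 8 genes, Krt15 and Lhx2, and the same held for 2.63% of 17316 genes. Among the 12682 genes with a mean of at least 5 CPM, 7 had a larger mean drop in this ratio than Krt15.

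Other type I keratins lay on both sides of 0. Krt17, a keratin of the outer root sheath and upper follicle, was at 166 ± 37.4 CPM in the controls and 304 ± 72.0 CPM in the cKO (log2 fold change 0.87, SE 0.23). Krt16, a keratin of wounded epidermis, was at 3.17 to 14.3 CPM in the controls and at 358, 51.8 and 40.4 CPM in cKO 1 to 3, and cKO 1 was also the library with the least Krt15. Krt24, a type I keratin reported in the bulge, was at 128, 385 and 164 CPM in the controls and 129, 132 and 116 CPM in the cKO (log2 fold change -0.85, SE 0.37; -0.22 without control 2), with control 2 highest as for Krt15. Krt19, a keratin of the bulge chosen here after its values were seen, was at 3.70 to 4.74 CPM in the controls and 2.36 to 3.51 CPM in the cKO, with every cKO library below every control (-0.41, SE 0.28). Of the 8 tested type I keratins neighbouring Krt15, 0 passed edgeR and 1, Krt16, passed DESeq2 as higher. In edgeR 3 had an unadjusted p under 0.05 (Krt16, Krt17 and Krt23, all higher), beside 3.38% of all genes higher at that level. The part of the stress keratins in the Krt15 difference was not tested.

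Lgr5 and Lgr6 are receptors for R-spondins, secreted proteins that strengthen Wnt signalling. Lgr5 (chromosome 10, 115450311 to 115587780) gave 13.8, 15.8 and 11.4 CPM in the 3 controls. The 3 cKO libraries had 9.98, 8.49 and 7.18 CPM. These values rest on 137 to 307 counts per library, and no cKO library reached the lowest control. The log2 fold change was -0.68 (SE 0.21, 95% interval -1.17 to -0.19), and it did not pass edgeR over all genes (adjusted p = 0.811, unadjusted p = 0.0130). The exact permutation test gave p = 0.1. DESeq2 gave an adjusted p of 0.278, and the authors' deposited table one of 0.418. The log2 fold change of Lgr5 stayed between -0.80 and -0.56 when 1 library was left out.

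Lgr6, which marks the isthmus and is also found in the sebaceous gland and epidermis, had no such separation. Lgr6 (chromosome 1, 134983301 to 135105276) was at 88.8, 114 and 102 CPM in the controls and at 98.2, 123 and 99.1 CPM in the cKO. The highest and the second lowest library were both cKO. The log2 fold change was 0.07 (SE 0.15), and its 95% interval from -0.28 to 0.41 leaves room for 1.21-fold lower to 1.33-fold higher levels. The sign was not stable, with -0.027 without control 1 and -0.046 without cKO 2.

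The wider R-spondin and Wnt list gave small values. Of 23 measured genes 8 were on the positive side, the median of their log2 fold changes was -0.19 beside -0.01 over all genes, and 0 passed edgeR or DESeq2. An unadjusted p under 0.05 in edgeR was reached by 2 genes, both lower, beside 1.95% of all genes. These were Lgr4, the broadly expressed relative of Lgr5, at 76.6 ± 1.66 CPM in the controls and 62.8 ± 4.53 CPM in the cKO (log2 fold change -0.29, SE 0.12), and Wnt10b, a Wnt ligand of the growing follicle, at 7.32 ± 1.96 and 4.61 ± 0.544 CPM (-0.67, SE 0.27). Znrf3, a ligase that removes Wnt receptors from the membrane, was at -0.37 (SE 0.17). The cKO libraries lay below all controls for 4 of the 23 genes, beside 4.81% of all tested genes. The Wnt target Axin2 was at 34.7, 62.9 and 59.5 CPM in the controls and 43.5, 44.5 and 43.5 CPM in the cKO.

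Lhx2, Sox9 and Nfatc1 are the transcription factors of the set. Lhx2, a LIM homeobox factor that maintains bulge stem cells, lies on chromosome 2 (38339281 to 38369733) and varied over 5.85, 19.4 and 12.7 CPM among the 3 controls. The cKO libraries gave 9.81, 6.33 and 12.3 CPM, so the groups overlapped. Its log2 fold change was -0.42 (SE 0.43, 95% interval -1.40 to 0.57), and it was -0.76 without control 1 and 0.030 without control 2. Control 2, the library with the most basal keratin, also had the most Lhx2. Relative to Krt5 and Krt14, Lhx2 was at 0.278%, 0.237% and 0.374% in the controls and at 0.191%, 0.149% and 0.217% in the cKO. The groups were separate, with an exact permutation p of 0.1. This ratio was chosen for Lhx2 after seeing the data, so its p-value describes the separation and is not a test. The mean log2 difference of this ratio was -0.67, beside the median of -0.36 over all genes. Relative to Krt5 alone or to the other 13 basal keratinocyte genes, the Lhx2 values of the groups overlapped.

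Sox9, an HMG-box factor of the bulge and outer root sheath, lies on chromosome 11 (112782224 to 112787760). It was at 170, 109 and 167 CPM in the controls and at 166, 163 and 125 CPM in the cKO. The groups overlapped throughout, and control 2 and cKO 3 were the lowest. The log2 fold change was 0.03 (SE 0.21), with a 95% interval from -0.45 to 0.50, and its sign changed with the scaling and with the library left out. Sox9 followed the summed RNA of cartilage genes from library to library, a reference chosen after seeing the data. The 16 cartilage genes summed to 2538, 1432 and 2238 CPM in the controls and to 2278, 2473 and 1600 CPM in the cKO, with the 2 lowest sums in the same 2 libraries as the 2 lowest Sox9 values. Sox9 counts were 6.71%, 7.58% and 7.48% of the cartilage sum in the controls and 7.30%, 6.59% and 7.81% in the cKO. That share varied 1.19-fold over the 6 libraries while the Sox9 level varied 1.57-fold. Relative to the endothelial genes Sox9 varied 1.45-fold. Following the cartilage sum was not particular to Sox9. Relative to the same 16 cartilage genes Cd34 varied 1.40-fold, while the Cd34 level varied 2.33-fold. The source of the Sox9 RNA was not tested.

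**Figure D3:**
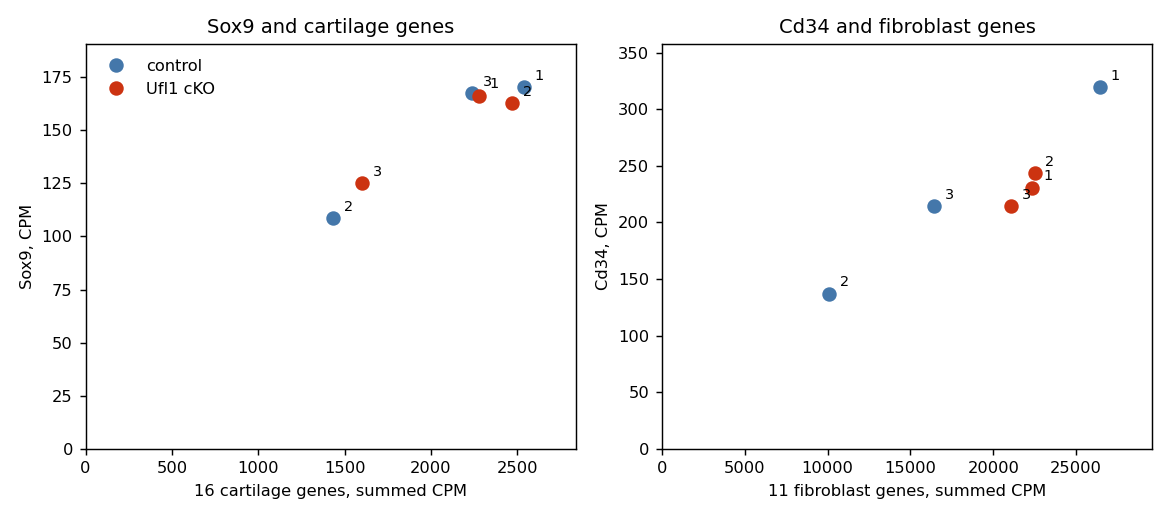
Sox9 against the summed level of 16 cartilage genes (left) and Cd34 against the summed level of 11 fibroblast genes (right), in CPM with all axes from 0; each point is a library with its replicate number. Control 2 has the lowest Sox9, cartilage, Cd34 and fibroblast levels.

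Nfatc1, the calcineurin-dependent factor that holds bulge cells in quiescence and also acts in immune and endothelial cells, lies on chromosome 18 (80606205 to 80713071). It was at 71.4, 73.3 and 90.5 CPM in the controls and at 95.1, 80.9 and 81.5 CPM in the cKO. The groups overlapped, with a log2 fold change of 0.13 (SE 0.14, 95% interval -0.20 to 0.46). Of 10 other genes of the calcineurin and NFAT pathway, 4 had a positive value, the median log2 fold change was -0.10, and 0 passed edgeR or DESeq2 (0 at an unadjusted p under 0.05 in edgeR). Ppp3ca, a catalytic subunit of calcineurin, was at 164 ± 26.3 CPM in the controls and 136 ± 5.31 CPM in the cKO. Rcan1, a calcineurin target that inhibits the enzyme, was at -0.19 (SE 0.13).

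Cd34 and Lrig1 are surface proteins. Cd34, a sialomucin of bulge cells, fibroblasts and vessels, lies on chromosome 1 (194938819 to 194961279) and came to 319, 137 and 214 CPM in the 3 controls. In the cKO it came to 231, 244 and 215 CPM. All cKO values lay inside the range of the controls, where control 1 was highest and control 2 lowest. The log2 fold change was 0.04 (SE 0.28, 95% interval -0.60 to 0.68), and it was 0.38 without control 1 and -0.22 without control 2. The order of the controls was the reverse of that of Krt15 and the same as that of the fibroblast genes and of the cartilage genes. Relative to the 11 fibroblast genes, Cd34 was at 1.21%, 1.35% and 1.30% in the controls and at 1.03%, 1.08% and 1.02% in the cKO. The cKO libraries lay below all controls on this scale for 8.89% of all genes, so the separation of Cd34 was common there. It was lost when the 3 collagen genes were left out of the fibroblast list, where the values were 3.73%, 5.58% and 3.63% in the controls and 4.09%, 4.07% and 4.44% in the cKO.

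Lrig1, a membrane protein that restrains the EGF receptor and keeps junctional zone cells quiet, lies on chromosome 6 (94604529 to 94700158). It was at 80.4, 74.8 and 91.9 CPM in the controls and at 69.4, 71.1 and 68.3 CPM in the cKO. The cKO libraries lay close together and below all controls, yet the difference was small. The log2 fold change was -0.24 (SE 0.12, 95% interval -0.53 to 0.04), and it did not pass (edgeR adjusted p = 0.968, unadjusted p = 0.0850; exact permutation p = 0.1). Its unadjusted p was 0.00471 in limma-voom with quality weights, where the adjusted p was 0.170. Among 13 other genes of the LRIG and EGF receptor list, 7 were positive, the median was 0.07 and 0 passed edgeR or DESeq2. The 2 with an unadjusted p under 0.05 in edgeR were the receptor ligands Epgn, at 1.62 ± 1.14 and 5.60 ± 3.07 CPM, and Areg, at 0.509 ± 0.352 and 1.75 ± 1.53 CPM, both highest in cKO 1. Over all genes 3.38% were higher at that level.

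Counted together, 4 of the 8 genes were on the negative side and 4 on the positive side. Their median log2 fold change was -0.11, beside -0.01 over all genes. In edgeR 0 of the 8 passed over all genes, where 0.00577% of all genes were called lower and 0.0115% higher. Both genes with an unadjusted p under 0.05 were lower (Krt15 and Lgr5), beside 1.95% of all genes lower at that level. DESeq2 called 1 of the 8, Krt15. The cKO libraries lay below all controls for 3 of the 8, Krt15, Lgr5 and Lrig1, beside 4.81% of all genes, and above all controls for 0, beside 5.73% of all genes. Since the 8 were chosen with earlier results known, these counts describe them and are not a test.

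**Figure D4:**
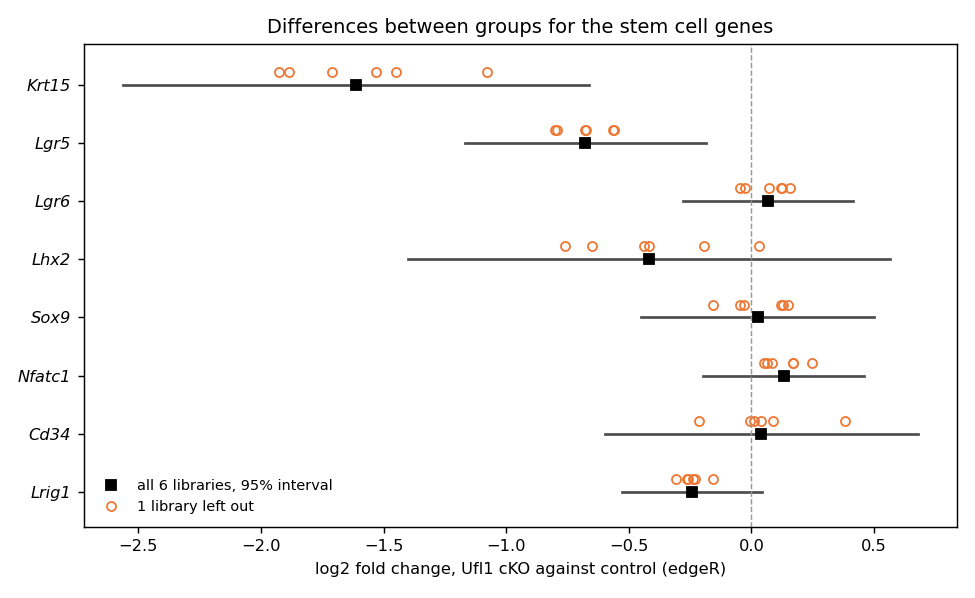
Log2 fold change of each gene, Ufl1 cKO against control, with its 95% interval (squares and lines; edgeR, n = 3 per group) and the values with 1 library left out (open circles). Krt15 ranges from -1.93 to -1.08 and Lgr5 from -0.80 to -0.56 over the left-out libraries, while Lgr6, Lhx2, Sox9 and Cd34 fall on both sides of 0.

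Other genes of the same follicle zones gave a mixed picture. Of 19 further bulge and hair germ genes, 7 were positive, the median log2 fold change was -0.04, and 0 passed edgeR or DESeq2 (0 at an unadjusted p under 0.05 in edgeR). Npnt, a matrix protein laid down by bulge cells, was at 41.4 ± 5.41 CPM in the controls and 51.1 ± 7.51 CPM in the cKO (0.30, SE 0.16). Gli1, a Hedgehog target of the hair germ and upper bulge, was at 18.0 ± 7.58 and 13.1 ± 2.62 CPM (-0.47, SE 0.33).

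Genes of the upper follicle were counted separately. Of 8 isthmus, junctional zone and infundibulum genes, 7 were positive, the median was 0.34 and 0 passed edgeR or DESeq2, while 3 were higher at an unadjusted p under 0.05 in edgeR (3.38% of all genes). Plet1, the surface antigen of isthmus cells, was at 14.4, 13.5 and 15.9 CPM in the controls and 23.1, 18.0 and 18.5 CPM in the cKO (log2 fold change 0.45, SE 0.17). Defb6, a beta-defensin, was at 73.5 ± 24.4 and 120 ± 7.13 CPM (0.71, SE 0.24), and the third was Krt17. For these 3 genes all cKO libraries lay above all controls, as for 5.73% of all genes. Krt79, a keratin of the upper follicle, overlapped (277, 1007 and 659 CPM in the controls, 712, 750 and 758 CPM in the cKO). Krt17 is also a stress keratin, and the part of the epidermal stress response in these values was not tested.

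Niche signals and hair growth were compared through lists. Of 16 genes of BMP signalling, which keeps bulge cells resting, 1 was positive and the median was -0.10. Over all genes 52.2% were negative and the median was -0.01. The list holds inhibitors of the pathway beside its ligands and targets. Among the inhibitors, Nog was at -0.34 (SE 0.17) and Grem1, the 1 positive gene, at 0.04 (SE 0.34). Id3, a BMP target, was at 170 ± 26.2 and 134 ± 6.52 CPM (-0.34, SE 0.15). It was the only one with an unadjusted p under 0.05 in edgeR, beside 1.95% of all genes lower at that level. Of 11 tested Hedgehog genes 3 were positive, with a median of -0.14 and 0 at an unadjusted p under 0.05. None of the genes in these lists passed edgeR or DESeq2. The 19 hair shaft and inner root sheath genes found in the table, which are transcribed in growing follicles, summed to between 73.7 and 237 CPM in the controls and between 93.9 and 316 CPM in the cKO. The 13 proliferation genes summed to 253 to 508 CPM and 284 to 448 CPM. Both sums overlapped between the groups, and their part in the values of the 8 genes was not tested.

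**Figure D5:**
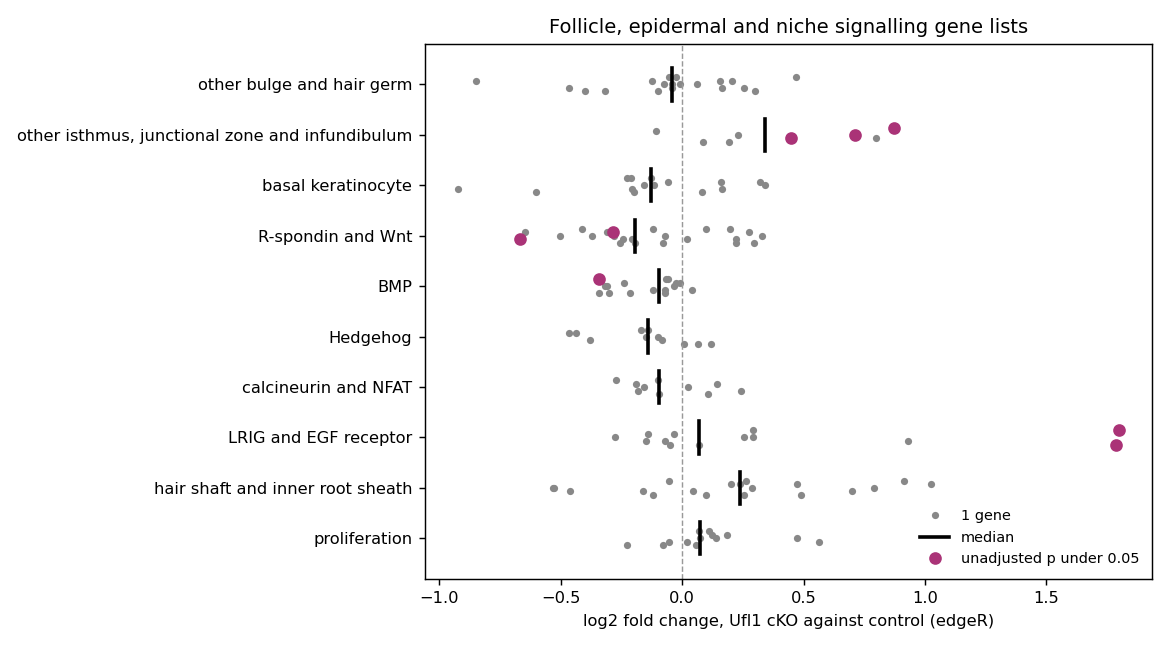
Log2 fold change (edgeR, Ufl1 cKO against control) of every tested gene in 10 lists of follicle, epidermal and signalling genes; each point is a gene, black bars are list medians and larger coloured points have an unadjusted p under 0.05. The upper follicle list has a median of 0.34 and the R-spondin and Wnt list one of -0.19.

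Genes whose pattern across the 6 libraries was most like that of Krt15 were found by the root mean square difference of centred log2 CPM, among genes with a mean of at least 5 CPM. The nearest was Hsd3b6, a steroid dehydrogenase (difference 0.23), at 8.77 to 21.9 CPM in the controls and 3.79 to 4.87 CPM in the cKO. Next came Slc6a2, the noradrenaline transporter (0.25), Il20ra, a receptor chain for IL-20 family cytokines (0.29), and Mesp2, a basic helix-loop-helix factor (0.31). Gm5127, Slc27a4, 4930449A18Rik and Fa2h followed, at 0.36 to 0.39. Slc27a4, a fatty acid transporter, was at 447, 1477 and 705 CPM in the controls and 388, 444 and 504 CPM in the cKO, so control 2 was the highest library for it as for Krt15. The nearest of the other 7 genes to Krt15 was Lhx2, at a difference of 0.66. The 15 sebaceous gland genes, a cell type beside the junctional zone, summed to between 13513 and 17600 CPM in the controls and between 8457 and 12337 CPM in the cKO, with 0 of the 15 absent. Scd1, a fatty acid desaturase, made up 73.5% of that sum. The other 14 genes summed to between 2801 and 4824 CPM in the controls and between 2874 and 3545 CPM in the cKO, which overlapped. Their part in the Krt15 difference was not tested.

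The other genes had nearer neighbours. For Lgr5 the nearest was Wnt10b (0.12), for Lgr6 it was Spryd4 (0.04), and for Lhx2 it was Kifc1, a mitotic kinesin (0.16). For Sox9 the nearest genes were Setd7 (0.03) and Wwtr1 (0.04), the latter encoding the transcriptional coactivator TAZ. For Cd34 they were Sqor and Enpp4 (0.04 each), for Nfatc1 3110039I08Rik (0.04) and for Lrig1 Ppp1r26 (0.04). Between members the smallest differences were those of Nfatc1 with Lrig1 and of Sox9 with Cd34 (0.21 each), and the largest was that of Krt15 with Cd34 (1.19). Small differences are common where a gene varies little, so these values describe the 6 libraries and were not tested.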

How the data were processed

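Ear skin RNA of 3 control and 3 Ufl1 cKO libraries was analysed. The submitters' processing notes name HISAT2, HTSeq and the mm10 build, and the sources used here do not give the strand setting. Whole-number counts per gene were deposited without normalization, per the file headers. The authors also deposited FPKM, a mean normalized signal per group, log2 fold changes, p-values and adjusted p-values, per the file headers, which do not name the test.

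TMM-scaled counts were tested in edgeR 4.0.16 (R 4.3.3) by quasi-likelihood, with filterByExpr, a robust fit and Benjamini-Hochberg adjustment over 17318 genes at a threshold of 0.05. Each SE was computed as the absolute log2 fold change over the square root of F. CPM are TMM-scaled, and log2 CPM for patterns used a prior count of 2. DESeq2 1.42.0 and limma 3.58.1 were alternatives. On simulated data for this comparison (17318 genes, 200 planted), edgeR recovered 24% of 2-fold and 72% of 4-fold changes with 4 false among 99 calls. DESeq2 recovered 50% and 82%, with 50 false among 173 calls.

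The 8 genes, the gene lists and the ratio to Krt5 and Krt14 were chosen with earlier results of these data known, and ratios of other genes were chosen after seeing the data. Named genes are the 8, Ufl1, up to 4 per list with the smallest p, and the nearest by pattern (8 for Krt15, 3 for the others). Axin2, Krt79, Krt19, Scd1, Krt5, Krt14 and the tissue markers were named outside this rule. Shared windows were computed from GENCODE transcripts (GRCm38). The chi-square per degree of freedom between any 2 libraries was at least 17.9, so none was a repeat sequencing of another. It cannot tell whether 2 libraries came from the same mouse.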

Additional observations from a re-analysis of the deposited data

How the results depend on the processing

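Krt15, Lgr5 and Lrig1 kept a negative and Nfatc1 a positive log2 fold change under every alternative run. Krt15 lay between -1.64 and -1.49 over 12 other scalings, filters and tests and passed in 1 of them, DESeq2 (-1.61). With 1 library left out it ran from -1.93 to -1.08 in edgeR. In DESeq2 it passed without control 1 (-1.91), control 2 (-1.09) and cKO 3 (-1.89) and did not pass without any of the other 3. Sox9 changed sign with upper-quartile scaling (-0.0080) and quality weights (-0.052) and ran from -0.16 to 0.15 with 1 library left out. The left-out range was -0.046 to 0.16 for Lgr6, -0.76 to 0.030 for Lhx2 and -0.22 to 0.38 for Cd34. Cd34 relative to fibroblast genes (-0.30) moved to -0.0094 without collagens and to 0.025 against endothelial genes. The cause was not tested. Over all genes, edgeR called 2 higher and 1 lower, against 18 and 7 with a filter of 1 count, 67 and 24 in DESeq2, and 19 and 7 with quality weights. The counts were 0 and 0 in limma-voom and on log2(FPKM + 1) or log2(FPKM + 0.1), and 0 to 2 in either direction with 1 library left out.

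Libraries with the same replicate number correlated at 0.22, -0.043 and -0.038 in their deviations from the group means, so the numbers were not taken as pairs. With the replicate number as a block there were 10 higher and 2 lower calls, and Krt15 was at -1.49 (adjusted p = 0.398 in edgeR). The paired Krt15 ratio was at -1.87, equal to the unpaired value by arithmetic, and its paired differences had an SD of 0.43. Lgr5 and Lhx2 rest on at most 377 counts per library, which limits their precision.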

Other observations

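Lists for the other cell types of ear skin were counted in the same way, and their part in the values of the 8 genes was not tested. In edgeR 0 genes passed in these lists except 1 melanocyte gene. All 8 melanocyte genes were positive (median log2 fold change 2.04), and 7 passed DESeq2 as higher, beside 0.387% of all genes. Of 10 Schwann cell and myelin genes 9 were negative (median -0.48, 4 lower at an unadjusted p under 0.05 in edgeR, beside 1.95% of all genes). Of 15 sebaceous gland genes 12 were negative (median -0.25), and DESeq2 called 1 higher and 2 lower (0.387% and 0.139% of all genes). Of 7 tested outer root sheath genes 5 were positive (median 0.87), with 1, Krt16, passing DESeq2. In edgeR 4 were higher at an unadjusted p under 0.05, beside 3.38% of all genes. These 4 were Krt6a, Krt6b, Krt16 and Krt17, which are also stress keratins, and all were highest in cKO 1. The others were Krt79 at 0.19, Krt75 at -0.26 and Barx2 at -0.26. The medians were 0.22 for 9 mast cell genes, 0.20 for 11 fibroblast genes, 0.12 for 7 lymphatic endothelial genes, -0.05 for 13 endothelial genes, 0.01 for 11 dermal papilla genes, -0.16 for 10 muscle genes, 0.02 for 6 Merkel cell genes and -0.13 for 15 basal keratinocyte genes, with 0 of these passing DESeq2.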
